A study of Saccharomyces cerevisiae with 18 samples.

Results

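The data described here cover 39 genes of Saccharomyces cerevisiae, namely GCN4 and 38 genes for amino acid synthesis enzymes of the arginine, histidine, lysine, tryptophan, shikimate, asparagine, homoserine, glutamate and glutamine, proline and serine pathways. They were picked by systematic name out of 6746 features in the count table. Branched-chain and sulfur amino acid genes, the plasmid and deletion markers of the strains, and genes on chromosomes III and VIII were left aside. All 39 passed the filter on low counts, as did 6395 features in all. Poly(A) RNA was sequenced from 18 libraries, 3 in each of 6 groups: histone H2A S121A cells and wild-type (WT) cells after 10 min at 39 °C (heat), both genotypes after 15 min in 0.4 M NaCl, and both genotypes unstressed in YPD at 30 °C. The S121A change puts alanine in place of a serine of histone H2A. Both genotypes were MATa derivatives of FY406 without the chromosomal H2A and H2B genes: (hta1-htb1)::LEU2 and (hta2-htb2)::TRP1. All cells also carried the alleles his3delta200, leu2delta1, ura3-52, trp1delta63 and lys2-128delta, and lived on a plasmid with HTA1-HTB1, mutant in S121A cells and unchanged in WT cells, so that per the labels the plasmid was the only source of these histones. The last allele is an insertion in LYS2, which is among the 39 genes and was thus disrupted in both genotypes. The labels name HIS3, HIS4 and HIS5 as the plasmid marker of replicates 1, 2 and 3 in every group. HIS5 did not follow that numbering, with medians over 6 libraries of 119 CPM for replicate number 1, 118 CPM for number 2 and 111 CPM for number 3. Nothing in the labels says that the replicates were separate cultures, so p-values measure the spread between these samples, which may be technical.

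Budding yeast makes all of these amino acids itself. Gcn4 is a transcription activator of the bZIP family that binds TGACTC and related sequences before many genes of amino acid synthesis. Its own synthesis is set mainly at translation: short open reading frames in the GCN4 leader keep ribosomes from the coding sequence until the kinase Gcn2 phosphorylates the initiation factor eIF2 in starved cells. GCN4 mRNA level is therefore not a measure of Gcn4 protein. Lysine genes have a second activator, Lys14, which acts with the pathway intermediate 2-aminoadipate semialdehyde and binds TCCNNNGGA. Arginine genes are also repressed by the ArgR-Mcm1 complex when arginine is present.

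The Gcn4 core TGACTC, on either strand, was present in the window from 250 bases before to 50 bases after the start of the coding model in 19 of 39 members (48.7%), against 479 of 6001 protein-coding genes (7.98%) in the R64 genome. With 500 bases before the start the shares were 27 of 39 members (69.2%) and 14.3% of all genes. TCCNNNGGA reads the same on both strands and was found in 3 of 39 members (7.69%), against 3.4% of all genes. Those 3 members were the lysine genes LYS12, LYS9 and LYS1. With 500 bases before the start TCCNNNGGA was found in 5 of 39 members (12.8%), against 6.65% of all genes. Those were 4 lysine genes and 1 tryptophan gene. CCCCT, the core of the stress response element, stood in 2 of 39 members (5.13%), LYS1 and ARO3, against 21.6% of all genes. With 500 bases before the start it stood in 11 of 39 members (28.2%), nearer the 36.4% of all genes. The sequences below, from the RefSeq R64 genome, show the motif in capitals with 20 bases on each side, 5′ to 3′ in the direction of the gene. GAGTCA is TGACTC read from the other strand. These genes were chosen for print because the results on stress and genotype turn on them, and a match is a description of letters, not a bound site. Not every site of the printed genes is shown. HIS7 has another TGACTC match at -230 from the start, and LYS9 another TCCNNNGGA at -225. LYS1 also has TGACTC matches at -134 and -249.
HIS1, chrV:265943-265988, - strand: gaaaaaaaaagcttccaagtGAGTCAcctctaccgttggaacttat
HIS7, chrII:716584-716629, - strand: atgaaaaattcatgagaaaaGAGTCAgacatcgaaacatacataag
TRP4, chrIV:1184562-1184607, + strand: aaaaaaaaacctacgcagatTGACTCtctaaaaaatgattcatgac
ARO1, chrIV:704241-704286, + strand: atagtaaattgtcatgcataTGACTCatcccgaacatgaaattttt
ASN1, chrXVI:822373-822418, + strand: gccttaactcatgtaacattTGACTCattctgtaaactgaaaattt
ASN2, chrVII:739727-739772, + strand: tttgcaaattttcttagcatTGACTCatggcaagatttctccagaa
SER2, chrVII:911708-911753, + strand: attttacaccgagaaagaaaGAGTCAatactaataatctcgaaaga
LYS12, chrIX:187765-187810, - strand: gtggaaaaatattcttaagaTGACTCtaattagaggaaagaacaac
LYS12, chrIX:187786-187834, - strand: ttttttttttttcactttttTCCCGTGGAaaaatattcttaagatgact
LYS9, chrXIV:715523-715571, - strand: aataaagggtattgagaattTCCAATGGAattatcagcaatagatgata
LYS1, chrIX:420904-420952, - strand: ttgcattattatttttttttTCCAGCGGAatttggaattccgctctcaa
PRO1, GLN1, ARG1, LYS4, ARO2 and ARO4, which also had large differences, hold no TGACTC, TCCNNNGGA or CCCCT within 250 bases before their start. With 500 bases before the start, TGACTC was present in 6 of 6 arginine genes, ARG1 among them. It was also present there in 2 of 2 glutamate and glutamine genes, GLN1 among them.

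Libraries held 39.6 to 53.03 M (mega) counts, and a count of 3 in a library was worth 0.0566 to 0.0758 CPM (counts in each 1 M of a library), far below every member. CPM values here are scaled by TMM, a method that assumes most genes do not change. The 10 most abundant genes took 18.3% to 22.4% of counts in heated libraries and 13.5% to 15.9% in the others. Scaling by library totals instead moved the median log2 fold change of all genes by 0.17 for S121A against WT without stress, by -0.29 and -0.61 for NaCl and heat in S121A, and by -0.13 and -0.39 for NaCl and heat in WT. Replicate 1 of WT under NaCl differed from the other replicates of its group by a chi-square of 74.2 and 120.6 per degree of freedom. All other replicate pairs lay between 8.51 and 83.8. Among them were replicate 3 of heated S121A (55.95 and 83.8) and replicate 1 of heated WT (69.5 and 52.7). Replicate 1 of WT under NaCl had the highest value of the 3 for 25 of the 39 genes. For replicate 1 of the other groups this number was 33 in unstressed S121A, 26 in heated WT and 24 in unstressed WT. It was 18 in heated S121A and 9 in S121A under NaCl.

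Both stresses lowered most of these mRNAs in both genotypes. The 39 genes together held 0.525% ± 0.036 of all counts in heated S121A and 0.470% ± 0.0078 in heated WT libraries, 0.799% ± 0.0049 in S121A and 0.788% ± 0.040 in WT under NaCl, and 1.34% in both genotypes without stress (SD, n = 3). Tests below are edgeR quasi-likelihood tests with Benjamini-Hochberg adjustment over all 6395 genes, and a gene is said to have risen or fallen at an adjusted p under 0.05. Under heat 33 of 39 members fell in S121A (39.7% of all genes fell) and 3 rose (40.3% of all genes), and in WT 36 fell (39.3% of all genes) and 1 rose (40.6% of all genes). The median log2 fold change of the 39 was -0.85 in S121A and -0.93 in WT under heat, beside -0.01 and 0.02 for all genes. In NaCl 25 fell in S121A (35.3% of all genes) and 3 rose (35.8%), and in WT 29 fell (37.2%) and 3 rose (36.3%), with medians of -0.36 in S121A and -0.42 in WT. Falls of at least 2-fold under heat were seen for 16 members in S121A (20.2% of all genes) and 19 in WT (21.3%). In NaCl they were seen for 10 in S121A (12.3%) and 12 in WT (15%). 20 members fell under both stresses in both genotypes (25.8% of all genes). ARG3, LYS1 and LYS20 rose in NaCl in both genotypes, and LYS1 alone rose under heat in both. With library totals alone no member rose under heat in either genotype, and 38 fell in each. That scaling moved the median of all genes under heat by -0.61 in S121A and -0.39 in WT. Shares of all genes were computed with TMM only, here and below. Counts with library totals therefore cannot be set against all genes. Fewer transcripts of a gene and a larger amount of other RNA cannot be told apart in these values.

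**Figure D1:**
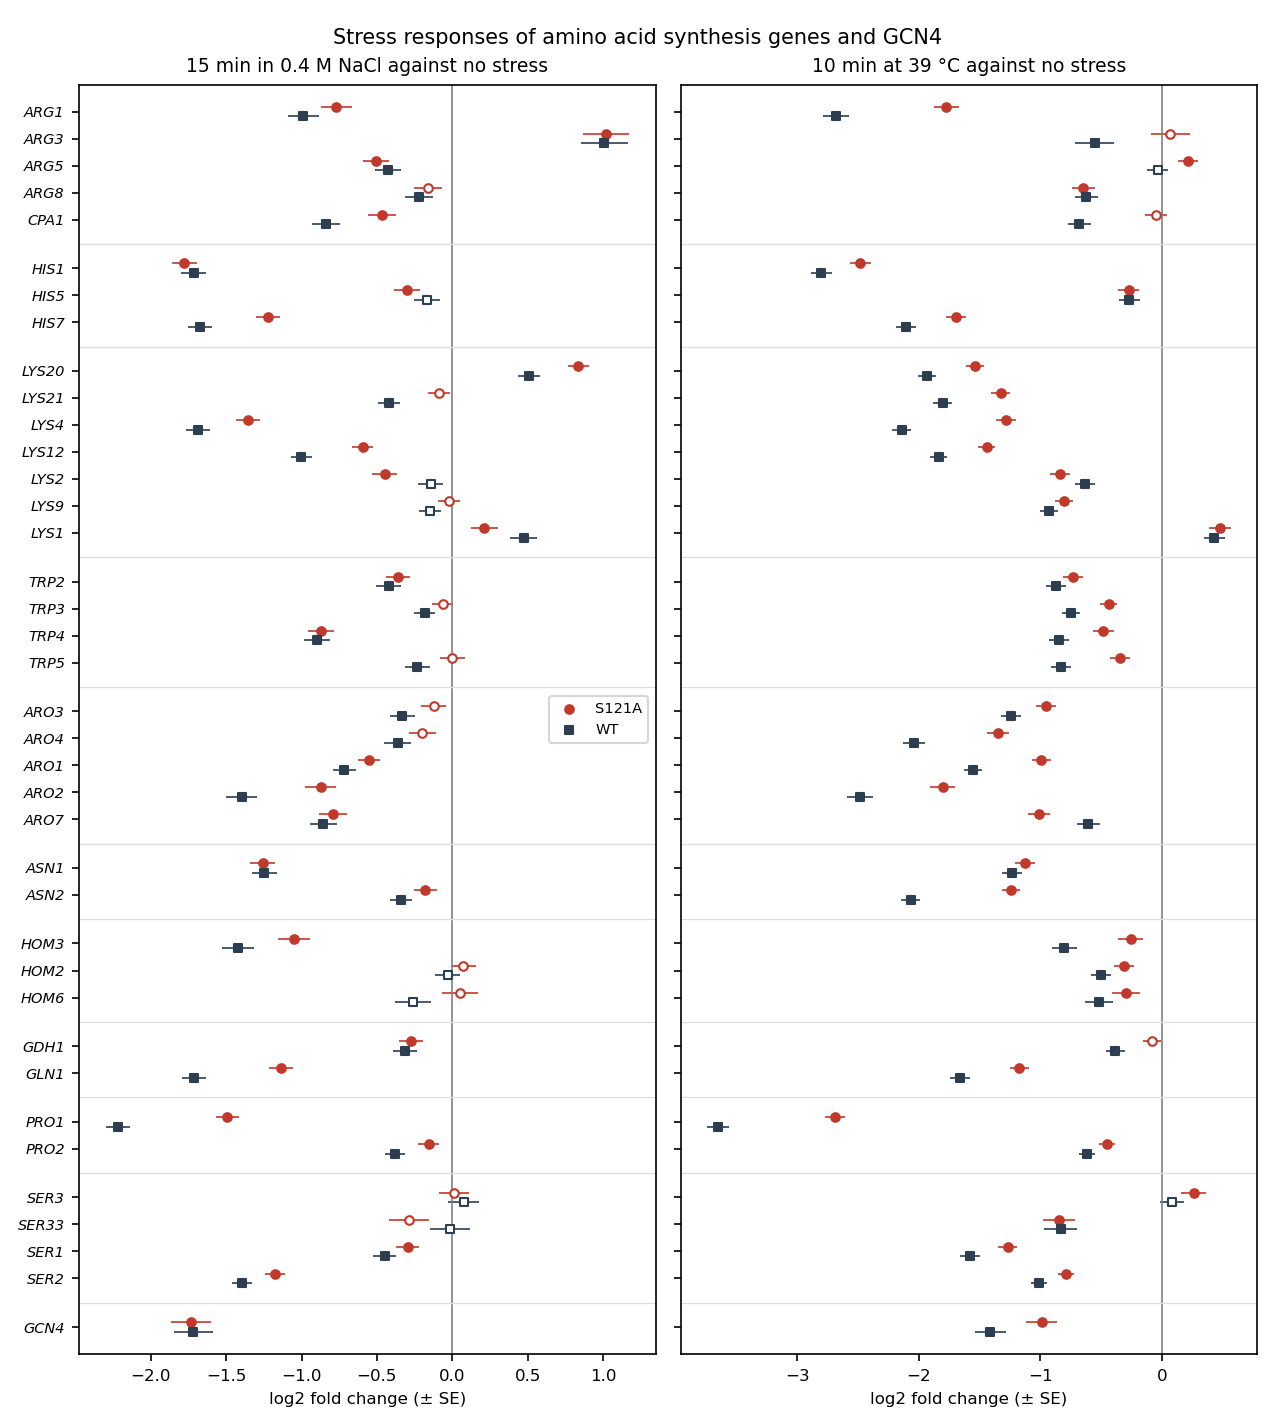
Log2 fold change of 38 of the 39 genes (rows, grouped by pathway) in NaCl and under heat against no stress, for S121A (circles) and WT (squares), with bars of ± 1 SE from the edgeR model and open symbols where the adjusted p was 0.05 or above. Most points lie left of 0 in both panels, PRO1 lies farthest left in WT at -2.22 in NaCl and -3.65 under heat, and under heat the circles mostly lie right of the squares.

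GCN4 (YEL009C, chromosome V, 138918 to 139763) had the highest level per kilobase of coding length of the 39 genes without stress, 1395 ± 66.3 CPM per kb in S121A and 1538 ± 134 in WT (SD, n = 3). The next was HOM6, at 687 ± 31.4 in S121A and 813 ± 54.9 in WT, and the lowest was ARG3, at 6.30 ± 0.372 in S121A and 7.71 ± 0.187 in WT. GCN4 was at 667, 613 and 503 CPM in S121A and 534, 499 and 433 CPM in WT under heat. In NaCl GCN4 was at 357, 353 and 356 CPM in S121A and 472, 412 and 303 CPM in WT. Unstressed cells had GCN4 at 1241, 1131 and 1169 CPM in S121A and 1432, 1238 and 1232 CPM in WT. Every stressed library was below every unstressed one in both genotypes, and the 2 genotypes overlapped in each condition. The log2 fold change under heat was -0.99 ± 0.13 (adjusted p = 5.73e-07) in S121A and -1.41 ± 0.13 (adjusted p = 3.10e-09) in WT, and in NaCl it was -1.73 ± 0.13 (adjusted p = 2.15e-10) in S121A and -1.72 ± 0.13 (adjusted p = 2.14e-10) in WT. S121A and WT did not pass the test in any condition, with log2 differences of -0.14 ± 0.13 without stress, -0.16 ± 0.13 in NaCl and 0.28 ± 0.13 under heat, and the first changed sign to 0.03 with library totals alone. The heat responses differed by 0.42 ± 0.18 (adjusted p = 0.0965), which did not pass either.

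In the arginine pathway, S121A and WT cells differed in ARG1 (argininosuccinate synthetase, YOL058W, chromosome XV, 219211 to 220473) and in CPA1, for the small subunit of carbamoyl phosphate synthetase. Of the 6 genes, 3 fell (39.7% of all genes) and 1 rose (40.3%) under heat in S121A, and 5 fell in WT (39.3%). ARG1 was at 36.3, 30.9 and 37.1 CPM in S121A and 25.9, 23.8 and 28.0 CPM in WT under heat. In NaCl ARG1 was at 64.3, 72.8 and 72.1 CPM in S121A and 99.6, 76.6 and 74.9 CPM in WT. Unstressed cells had ARG1 at 129, 116 and 111 CPM in S121A and 169, 168 and 161 CPM in WT. Heated S121A libraries lay above all heated WT libraries, and unstressed S121A libraries lay below all unstressed WT libraries. ARG1 thus differed by 0.43 ± 0.11 (adjusted p = 0.00398) under heat and by -0.48 ± 0.10 (adjusted p = 0.00192) without stress. Its heat response was -1.77 ± 0.10 in S121A and -2.68 ± 0.11 in WT, a difference of 0.91 ± 0.15 (adjusted p = 1.49e-04). CPA1 averaged 153 ± 6.17 CPM in heated S121A and 115 ± 20.8 CPM in heated WT, against 158 ± 7.90 CPM in unstressed S121A and 184 ± 8.15 CPM in unstressed WT (SD, n = 3). Its heat responses differed by 0.63 ± 0.13 (adjusted p = 0.00182).

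ARG3 (ornithine carbamoyltransferase, YJL088W, chromosome X, 268799 to 269815) went the other way in salt. ARG3 was at 7.82, 7.49 and 4.83 CPM in S121A and 5.57, 5.43 and 5.05 CPM in WT under heat. In NaCl ARG3 was at 13.9, 12.6 and 12.5 CPM in S121A and 19.9, 14.7 and 12.7 CPM in WT. Unstressed cells had ARG3 at 6.33, 6.82 and 6.08 CPM in S121A and 7.99, 7.90 and 7.63 CPM in WT. All NaCl libraries were above all unstressed libraries of their genotype, with log2 fold changes of 1.02 ± 0.15 (adjusted p = 6.50e-06) in S121A and 1.01 ± 0.15 (adjusted p = 6.27e-06) in WT. Under heat ARG3 fell in WT, with a log2 fold change of -0.55 ± 0.16, and heated S121A libraries overlapped unstressed ones. The S121A and WT heat responses of ARG3 differed by 0.62 ± 0.23 (adjusted p = 0.0559), which did not pass. ARG5 (YER069W, chromosome V, 295410 to 298001, ARG56 in the R64 table, for the kinase and reductase of acetylglutamate) fell in NaCl, with log2 fold changes of -0.51 ± 0.09 in S121A and -0.43 ± 0.08 in WT. ARG8, for acetylornithine aminotransferase, fell under heat, with log2 fold changes of -0.65 ± 0.09 in S121A and -0.62 ± 0.09 in WT.

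HIS1 and HIS7, for the first and a middle step of histidine synthesis, fell at least 2-fold in all 4 stress comparisons, and HIS5, for the aminotransferase nearer its end, fell in 3 of them by less than 2-fold. HIS1 was at 70.7, 63.7 and 65.9 CPM in S121A and 50.9, 55.7 and 55.6 CPM in WT under heat. In NaCl HIS1 was at 104, 114 and 109 CPM in S121A and 133, 106 and 106 CPM in WT. Unstressed cells had HIS1 at 374, 377 and 367 CPM in S121A and 379, 371 and 381 CPM in WT. HIS1 (YER055C, chromosome V, 264892 to 265785, ATP phosphoribosyltransferase, the first step) fell under heat, with log2 fold changes of -2.48 ± 0.09 in S121A and -2.80 ± 0.09 in WT, and in NaCl of -1.78 ± 0.08 in S121A and -1.72 ± 0.08 in WT. Heated S121A libraries were all above heated WT libraries, with a difference of 0.30 ± 0.08 (adjusted p = 0.00780). HIS7 was at 25.3, 22.8 and 25.1 CPM in S121A and 21.3, 22.6 and 25.0 CPM in WT under heat. In NaCl HIS7 was at 32.4, 34.6 and 34.8 CPM in S121A and 27.1, 32.1 and 33.8 CPM in WT. Unstressed cells had HIS7 at 81.0, 79.7 and 76.3 CPM in S121A and 99.3, 102 and 95.6 CPM in WT. HIS7 (YBR248C, chromosome II, 714807 to 716465, imidazole glycerol phosphate synthase) was lower in every unstressed S121A library than in every WT one, -0.32 ± 0.08 (adjusted p = 0.00545), while the stressed libraries of the genotypes overlapped. Its responses differed between the genotypes by 0.45 ± 0.11 (adjusted p = 0.0127) in NaCl and 0.41 ± 0.11 (adjusted p = 0.0133) under heat. The unstressed difference of HIS7 (adjusted p = 0.213) and its response differences in NaCl (0.181) and under heat (0.29) did not pass with library totals alone. HIS5 was at 107, 97.9 and 95.7 CPM in S121A and 115, 122 and 111 CPM in WT under heat. In NaCl HIS5 was at 96.4, 99.1 and 99.3 CPM in S121A and 147, 114 and 111 CPM in WT. Unstressed cells had HIS5 at 123, 125 and 116 CPM in S121A and 141, 135 and 142 CPM in WT. HIS5 (YIL116W, chromosome IX, 142928 to 144085) fell under heat, with log2 fold changes of -0.27 ± 0.09 in S121A and -0.27 ± 0.09 in WT. In NaCl it was -0.30 ± 0.09 (adjusted p = 0.00379) in S121A and -0.17 ± 0.09 (adjusted p = 0.0798) in WT.

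The lysine pathway was the group in which S121A was higher than WT most often: 6 of 7 genes under heat (19.5% of all genes), 5 in NaCl (14.6%) and 3 without stress (9.05%), while the remaining ones did not pass. Of the 3 without stress, LYS2 did not pass without 4 of the 6 libraries and LYS1 without 2 of them. Of the 5 in NaCl, LYS4 did not pass without 2 of the 6 libraries (edgeR adjusted p of 0.0544 to 0.0772) and LYS21 without 1 (0.0506). LYS9, for the glutamate-forming saccharopine dehydrogenase, was higher in all 3. LYS9 was at 119, 114 and 111 CPM in S121A and 89.8, 76.7 and 77.3 CPM in WT under heat. In NaCl LYS9 was at 188, 203 and 201 CPM in S121A and 145, 133 and 140.4 CPM in WT. Unstressed cells had LYS9 at 216, 191 and 193 CPM in S121A and 160.1, 148 and 156 CPM in WT. S121A and WT libraries of LYS9 (YNR050C, chromosome XIV, 714048 to 715388) did not overlap in any condition, with differences of 0.50 ± 0.07 (adjusted p = 3.37e-05) under heat, 0.50 ± 0.07 (adjusted p = 4.59e-05) in NaCl and 0.37 ± 0.07 (adjusted p = 0.00123) without stress. LYS12 was at 72.6, 69.9 and 75.8 CPM in S121A and 50.4, 49.4 and 49.6 CPM in WT under heat. In NaCl LYS12 was at 118, 137 and 138 CPM in S121A and 90.7, 88.3 and 87.5 CPM in WT. Unstressed cells had LYS12 at 204, 189.8 and 199.5 CPM in S121A and 182, 168 and 183 CPM in WT. LYS12 (YIL094C, chromosome IX, 186517 to 187632, homoisocitrate dehydrogenase) was higher in S121A by 0.55 ± 0.07 (adjusted p = 4.35e-06) under heat and 0.56 ± 0.07 (adjusted p = 4.51e-06) in NaCl, with no overlap in either. LYS4 was at 52.5, 51.4 and 57.0 CPM in S121A and 33.8, 28.3 and 30.4 CPM in WT under heat. In NaCl LYS4 was at 50.6, 50.7 and 51.9 CPM in S121A and 45.7, 42.0 and 39.0 CPM in WT. Unstressed cells had LYS4 at 141, 124 and 127 CPM in S121A and 141, 138 and 128 CPM in WT. LYS4 (YDR234W, chromosome IV, 931129 to 933210, homoaconitase) fell under both stresses, and the stressed S121A libraries stood above the stressed WT libraries. The LYS4 difference was 0.80 ± 0.08 (adjusted p = 2.32e-07) under heat, and its heat responses, -1.28 ± 0.08 in S121A and -2.14 ± 0.08 in WT, differed by 0.86 ± 0.11 (adjusted p = 1.37e-05). In NaCl the response difference of LYS4 was 0.33 ± 0.11 (adjusted p = 0.0698).

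The homocitrate synthase genes LYS20 and LYS21, whose product starts lysine synthesis, parted in salt. LYS20 was at 56.7, 52.0 and 62.0 CPM in S121A and 44.6, 40.7 and 42.6 CPM in WT under heat. In NaCl LYS20 was at 281, 301 and 301 CPM in S121A and 243, 233 and 219 CPM in WT. Unstressed cells had LYS20 at 170.5, 162 and 163 CPM in S121A and 167, 165 and 157 CPM in WT. LYS20 (YDL182W, chromosome IV, 133437 to 134723) rose in NaCl by 0.83 ± 0.07 (adjusted p = 1.40e-09) in S121A and 0.51 ± 0.07 (adjusted p = 1.84e-06) in WT, and fell under heat, with log2 fold changes of -1.54 ± 0.07 in S121A and -1.93 ± 0.07 in WT. LYS21 was at 62.5, 59.4 and 71.0 CPM in S121A and 50.7, 44.2 and 49.1 CPM in WT under heat. In NaCl LYS21 was at 145, 153 and 157 CPM in S121A and 125, 129.8 and 120.5 CPM in WT. Unstressed cells had LYS21 at 172, 158 and 154 CPM in S121A and 173, 168 and 160.5 CPM in WT. LYS21 (YDL131W, chromosome IV, 227393 to 228715) fell in NaCl in WT, -0.42 ± 0.08 (adjusted p = 4.41e-05), and its S121A libraries overlapped between NaCl and no stress. Both genes were higher in heated S121A than in heated WT libraries without overlap, by 0.42 ± 0.07 (adjusted p = 1.71e-04) for LYS20 and 0.42 ± 0.08 (adjusted p = 2.75e-04) for LYS21. LYS1, for the last enzyme of the pathway, rose in all 4 stress comparisons by 0.21 to 0.48, but with library totals alone its values in S121A were -0.08 in NaCl and -0.13 under heat. LYS2 was at 71.9, 69.8 and 61.9 CPM in S121A and 65.7, 68.0 and 63.2 CPM in WT under heat. In NaCl LYS2 was at 87.1, 89.9 and 89.9 CPM in S121A and 106, 83.9 and 86.4 CPM in WT. Unstressed cells had LYS2 at 125, 122 and 117 CPM in S121A and 102, 95.4 and 107 CPM in WT. LYS2 (YBR115C, chromosome II, 469748 to 473926, aminoadipate reductase) was counted at these levels although it carries the insertion allele in both genotypes. It fell under heat, with log2 fold changes of -0.84 ± 0.08 in S121A and -0.63 ± 0.08 in WT, and in NaCl it was -0.45 ± 0.08 (adjusted p = 6.38e-05) in S121A and -0.14 ± 0.08 (adjusted p = 0.123) in WT.

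The tryptophan genes fell under heat, 4 of 4 in S121A (39.7% of all genes) and in WT (39.3%), and without stress 3 of 4 were lower in S121A (14.1% of all genes). The unstressed differences of TRP3 (adjusted p = 0.266) and TRP4 (0.368) did not pass with library totals alone. TRP4 was at 93.5, 89.6 and 81.6 CPM in S121A and 90.5, 81.7 and 76.4 CPM in WT under heat. In NaCl TRP4 was at 70.8, 65.4 and 66.4 CPM in S121A and 88.3, 79.6 and 72.2 CPM in WT. Unstressed cells had TRP4 at 131, 117 and 122 CPM in S121A and 159, 149 and 139 CPM in WT. TRP4 (YDR354W, chromosome IV, 1184747 to 1185889, anthranilate phosphoribosyltransferase) fell in NaCl, with log2 fold changes of -0.87 ± 0.09 in S121A and -0.90 ± 0.09 in WT, and under heat of -0.48 ± 0.09 in S121A and -0.85 ± 0.09 in WT. TRP2 was at 92.9, 89.7 and 79.1 CPM in S121A and 82.8, 91.0 and 82.4 CPM in WT under heat. In NaCl TRP2 was at 108, 114 and 116 CPM in S121A and 134, 110.2 and 106 CPM in WT. Unstressed cells had TRP2 at 148, 146 and 141 CPM in S121A and 156, 161 and 151 CPM in WT. TRP2 (YER090W, chromosome V, 337949 to 339472, anthranilate synthase) showed no S121A difference that passed, and all its stressed libraries were below the unstressed ones of the same genotype. TRP5 (tryptophan synthase) averaged 464 ± 27.7 CPM in unstressed S121A and 600.0 ± 43.0 CPM in unstressed WT (SD, n = 3), a difference of -0.37 ± 0.08 (adjusted p = 0.00300) with no overlap. Its heat responses of -0.35 ± 0.08 in S121A and -0.83 ± 0.08 in WT differed by 0.48 ± 0.12 (adjusted p = 0.00557). TRP3, whose product carries several activities of the pathway, fell under heat, with log2 fold changes of -0.44 ± 0.07 in S121A and -0.75 ± 0.07 in WT.

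All 5 genes of the shikimate and chorismate steps, which lead to the aromatic amino acids, fell under heat in both genotypes (39.7% of all genes in S121A and 39.3% in WT). In NaCl 3 fell in S121A (35.3% of all genes) and 5 in WT (37.2%). ARO2 was at 91.2, 84.5 and 113 CPM in S121A and 75.9, 61.1 and 65.8 CPM in WT under heat. In NaCl ARO2 was at 169, 188 and 193 CPM in S121A and 142, 141 and 148 CPM in WT. Unstressed cells had ARO2 at 367, 327 and 313 CPM in S121A and 397, 388 and 348 CPM in WT. ARO2 (YGL148W, chromosome VII, 226399 to 227529, chorismate synthase) was higher in S121A than in WT without overlap under both stresses, by 0.51 ± 0.10 (adjusted p = 7.45e-04) under heat and 0.35 ± 0.10 (adjusted p = 0.0145) in NaCl. Its heat responses were -1.80 ± 0.10 in S121A and -2.48 ± 0.11 in WT, a difference of 0.68 ± 0.14 (adjusted p = 0.00201). ARO4 was at 248, 253 and 243 CPM in S121A and 189.6, 169 and 154 CPM in WT under heat. In NaCl ARO4 was at 524, 571 and 555 CPM in S121A and 609, 559 and 472 CPM in WT. Unstressed cells had ARO4 at 657, 603 and 637 CPM in S121A and 738, 703 and 667 CPM in WT. ARO4 (YBR249C, chromosome II, 716882 to 717994), for a DAHP synthase that opens the pathway, fell under heat, with log2 fold changes of -1.35 ± 0.09 in S121A and -2.04 ± 0.09 in WT, and heated S121A libraries stood above heated WT libraries, 0.54 ± 0.09 (adjusted p = 1.06e-04). ARO3 was at 120.4, 113 and 140.0 CPM in S121A and 119, 105 and 111 CPM in WT under heat. In NaCl ARO3 was at 208, 225 and 228 CPM in S121A and 216, 200.1 and 213 CPM in WT. Unstressed cells had ARO3 at 257, 240.4 and 224 CPM in S121A and 277, 259 and 256 CPM in WT. ARO3 (YDR035W, chromosome IV, 521816 to 522928), for the other DAHP synthase, fell under heat, with log2 fold changes of -0.95 ± 0.08 in S121A and -1.24 ± 0.08 in WT, and its genotypes overlapped in every condition.

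ARO1, whose product carries out the middle steps of the shikimate pathway, was lower in unstressed S121A. ARO1 was at 145, 141 and 139 CPM in S121A and 142, 123 and 116 CPM in WT under heat. In NaCl ARO1 was at 191, 196 and 189.7 CPM in S121A and 239.6, 224 and 216 CPM in WT. Unstressed cells had ARO1 at 295, 267 and 284 CPM in S121A and 392.03, 369 and 357 CPM in WT. The unstressed difference of ARO1 (YDR127W, chromosome IV, 704484 to 709250) was -0.40 ± 0.08 (adjusted p = 7.23e-04) with no overlap, and its heat responses of -0.99 ± 0.08 in S121A and -1.55 ± 0.08 in WT differed by 0.56 ± 0.11 (adjusted p = 7.67e-04). ARO7 (chorismate mutase) was the only member whose heat response was more negative in S121A among those that passed, at -1.01 ± 0.09 in S121A and -0.61 ± 0.09 in WT, a difference of -0.41 ± 0.13 (adjusted p = 0.0282). This ARO7 difference did not pass without 8 of 12 libraries (edgeR adjusted p of 0.0564 to 0.102).

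The asparagine synthetase genes ASN1 and ASN2 both fell under both stresses, but in different proportions. ASN1 was at 188, 176 and 219 CPM in S121A and 217, 197 and 229 CPM in WT under heat. In NaCl ASN1 was at 166, 187 and 179.7 CPM in S121A and 198, 221 and 219 CPM in WT. Unstressed cells had ASN1 at 439.8, 409 and 425 CPM in S121A and 509, 492 and 512 CPM in WT. ASN1 (YPR145W, chromosome XVI, 822620 to 824338) fell, with log2 fold changes of -1.13 ± 0.08 in S121A and -1.23 ± 0.08 in WT under heat and of -1.26 ± 0.08 in S121A and -1.25 ± 0.08 in WT in NaCl. ASN2 was at 282, 270.4 and 284 CPM in S121A and 209, 183 and 186 CPM in WT under heat. In NaCl ASN2 was at 547, 599 and 598 CPM in S121A and 669, 637 and 604 CPM in WT. Unstressed cells had ASN2 at 705, 617 and 653 CPM in S121A and 847, 782 and 789.5 CPM in WT. ASN2 (YGR124W, chromosome VII, 739944 to 741662) fell under heat, with log2 fold changes of -1.24 ± 0.08 in S121A and -2.07 ± 0.08 in WT, and less in NaCl, -0.18 ± 0.07 in S121A and -0.34 ± 0.07 in WT. Heated S121A libraries of ASN2 stood above heated WT libraries, 0.53 ± 0.07 (adjusted p = 1.56e-05), and the heat responses differed by 0.83 ± 0.11 (adjusted p = 1.17e-05).

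HOM3, for aspartate kinase at the entry to threonine and methionine synthesis, fell under both stresses in both genotypes, and HOM2 and HOM6, which act after it, fell in both genotypes under heat and did not pass in NaCl. HOM3 was at 278, 301 and 215 CPM in S121A and 238, 210.5 and 220.4 CPM in WT under heat. In NaCl HOM3 was at 162, 155 and 142 CPM in S121A and 161, 149.7 and 125 CPM in WT. Unstressed cells had HOM3 at 325, 299.8 and 324 CPM in S121A and 395, 383 and 388 CPM in WT. HOM3 (YER052C, chromosome V, 256375 to 257958) fell in NaCl, with log2 fold changes of -1.05 ± 0.11 in S121A and -1.42 ± 0.11 in WT, and of -0.80 ± 0.11 in WT under heat. In heated S121A the log2 fold changes of the 3 genes lay between -0.32 and -0.26, and HOM3 and HOM6 libraries overlapped the unstressed ones. These S121A heat falls did not pass without 3 of 6 libraries (edgeR adjusted p of 0.0759 to 0.239 for HOM3 and 0.0527 to 0.213 for HOM6). The heat responses of HOM3 differed by 0.54 ± 0.15 (adjusted p = 0.0127), which did not pass with library totals alone (adjusted p = 0.133). HOM2 (aspartate semialdehyde dehydrogenase) averaged 446 ± 11.4 CPM in heated S121A and 436 ± 29.8 CPM in heated WT, against 555 ± 28.5 CPM in unstressed S121A and 618 ± 31.9 CPM in unstressed WT (SD, n = 3). HOM6 (homoserine dehydrogenase) was at 769 ± 30.4 CPM in S121A and 732 ± 62.4 CPM in WT in NaCl. In S121A it was at 616, 721 and 478 CPM under heat and 780, 731 and 715 CPM without stress.

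PRO1 and GLN1, both of which use glutamate, fell strongly in salt, and both fell less in S121A. PRO1 was at 8.43, 8.62 and 7.31 CPM in S121A and 3.96, 3.88 and 3.78 CPM in WT under heat. In NaCl PRO1 was at 18.8, 17.98 and 19.0 CPM in S121A and 10.7, 11.3 and 9.39 CPM in WT. Unstressed cells had PRO1 at 50.9, 53.2 and 52.9 CPM in S121A and 48.3, 47.6 and 50.4 CPM in WT. Heated and NaCl-treated S121A libraries of PRO1 (YDR300C, chromosome IV, 1061505 to 1062791, gamma-glutamyl kinase, the first step of proline synthesis) were all above the WT libraries of the same condition, and the unstressed difference did not pass. PRO1 fell under heat, with log2 fold changes of -2.69 ± 0.08 in S121A and -3.65 ± 0.09 in WT, and in NaCl of -1.49 ± 0.08 in S121A and -2.22 ± 0.08 in WT, the farthest falls of the 39 genes in WT. The S121A difference was 1.07 ± 0.09 (adjusted p = 2.87e-08) under heat and 0.83 ± 0.08 (adjusted p = 2.35e-07) in NaCl, and the responses differed by 0.96 ± 0.12 (adjusted p = 7.06e-06) for heat and 0.73 ± 0.11 (adjusted p = 1.45e-04) for NaCl. PRO2, for the next enzyme, averaged 104 ± 5.62 CPM in heated S121A and 101 ± 0.856 CPM in heated WT, against 143 ± 7.51 CPM in unstressed S121A and 155 ± 5.43 CPM in unstressed WT (SD, n = 3). No S121A difference of PRO2 passed.

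GLN1 was at 226, 233 and 264 CPM in S121A and 231, 223 and 265 CPM in WT under heat. In NaCl GLN1 was at 239, 245 and 256 CPM in S121A and 223, 233 and 239 CPM in WT. Unstressed cells had GLN1 at 577, 534 and 518 CPM in S121A and 771, 777 and 726 CPM in WT. Stressed libraries of GLN1 (YPR035W, chromosome XVI, 642208 to 643320, glutamine synthetase) overlapped between the genotypes, while unstressed S121A libraries all lay below unstressed WT libraries, -0.48 ± 0.08 (adjusted p = 2.23e-04). Its NaCl responses of -1.14 ± 0.08 in S121A and -1.71 ± 0.08 in WT differed by 0.57 ± 0.11 (adjusted p = 0.00195), and its heat responses by 0.49 ± 0.11 (adjusted p = 0.00360). The heat difference did not pass with library totals alone (adjusted p = 0.0613). GDH1, the main NADP-dependent glutamate dehydrogenase gene, averaged 714 ± 39.6 CPM in heated S121A and 549 ± 50.2 CPM in heated WT (SD, n = 3), a difference of 0.38 ± 0.08 (adjusted p = 8.69e-04).

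Of the 4 serine genes, SER1 and SER2 fell under both stresses in both genotypes, and SER3 fell under neither with TMM scaling. In heated S121A the log2 fold change of SER3 was 0.26, a rise that passed. With library totals alone it was -0.35, a fall that passed (edgeR adjusted p = 0.00759). SER2 was at 28.8, 30.1 and 31.6 CPM in S121A and 32.3, 30.2 and 32.8 CPM in WT under heat. In NaCl SER2 was at 22.0, 24.1 and 23.3 CPM in S121A and 23.2, 24.2 and 25.6 CPM in WT. Unstressed cells had SER2 at 53.9, 50.4 and 52.4 CPM in S121A and 64.8, 61.2 and 66.1 CPM in WT. SER2 (YGR208W, chromosome VII, 911883 to 912812, phosphoserine phosphatase) fell in NaCl, with log2 fold changes of -1.18 ± 0.07 in S121A and -1.40 ± 0.07 in WT, and under heat of -0.79 ± 0.07 in S121A and -1.01 ± 0.07 in WT. SER1 was at 105, 99.8 and 106 CPM in S121A and 94.0, 97.3 and 95.6 CPM in WT under heat. In NaCl SER1 was at 187, 214 and 209 CPM in S121A and 238, 199 and 190.2 CPM in WT. Unstressed cells had SER1 at 255, 245 and 248 CPM in S121A and 291, 275 and 291 CPM in WT. SER1 (YOR184W, chromosome XV, 679357 to 680544, phosphoserine aminotransferase) fell under heat, with log2 fold changes of -1.27 ± 0.08 in S121A and -1.58 ± 0.08 in WT. SER3 was at 393, 385 and 359 CPM in S121A and 282, 303 and 276 CPM in WT under heat. In NaCl SER3 was at 311, 324 and 321 CPM in S121A and 356, 256 and 244 CPM in WT. Unstressed cells had SER3 at 309, 314 and 327 CPM in S121A and 267, 262 and 285 CPM in WT. SER3 (YER081W, chromosome V, 322686 to 324095) encodes 3-phosphoglycerate dehydrogenase, and its heated S121A libraries all lay above heated WT libraries, 0.40 ± 0.10 (adjusted p = 0.00495). The SER3 model overlaps on the same strand the noncoding RNA SRG1, which is known to run through the SER3 promoter and to repress the gene. SRG1 itself was counted at 4.35 to 12.3 CPM, and no source used here says how overlapping reads were counted, so SER3 counts are uncertain. SER33 was at 62.6, 61.1 and 46.4 CPM in S121A and 56.4, 65.6 and 55.3 CPM in WT under heat. In NaCl SER33 was at 81.4, 82.6 and 86.7 CPM in S121A and 136, 90.9 and 85.2 CPM in WT. Unstressed cells had SER33 at 103, 101 and 102 CPM in S121A and 105, 102 and 109 CPM in WT. SER33 (YIL074C, chromosome IX, 221081 to 222490), for the other 3-phosphoglycerate dehydrogenase, fell under heat, with log2 fold changes of -0.85 ± 0.13 in S121A and -0.83 ± 0.13 in WT, and its genotypes overlapped in every condition.

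**Figure D2:**
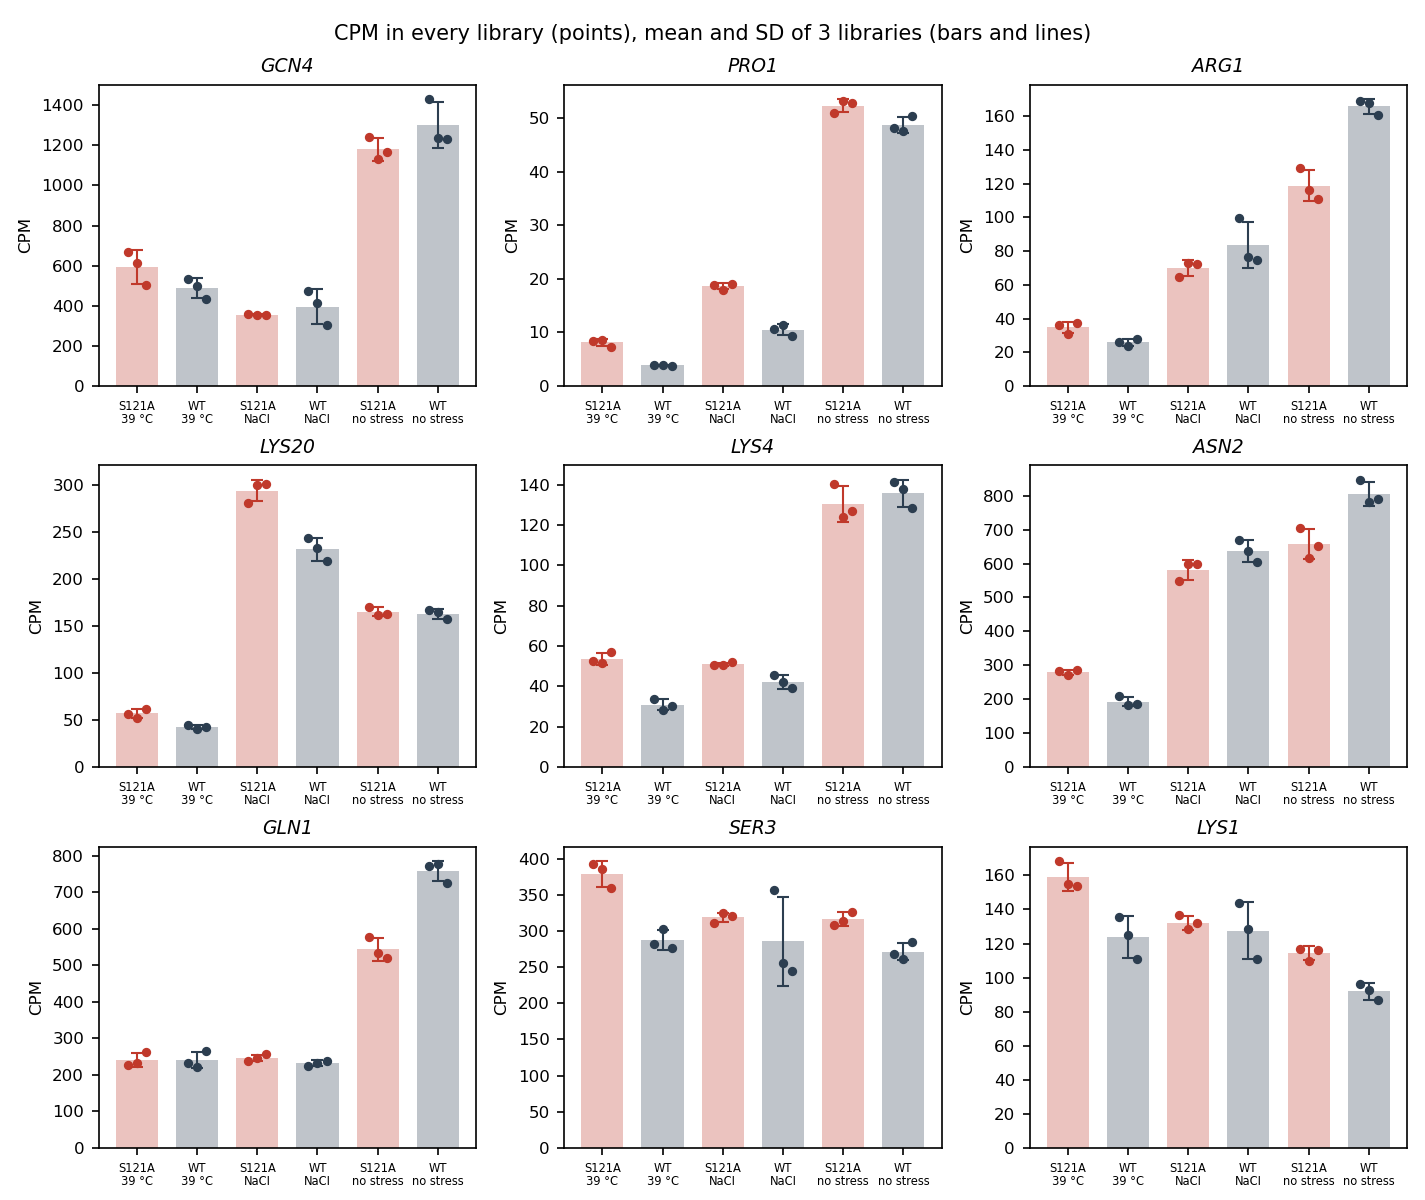
CPM (vertical axes, from 0) of 9 genes in every library, with points for libraries, bars for the mean of 3 and lines for the SD, S121A in red and WT in grey, under heat (39 °C), in NaCl and without stress. PRO1, LYS4 and ASN2 points of heated S121A lie above those of heated WT, LYS20 is highest in NaCl, and GLN1 differs between the genotypes mainly without stress.

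Ratios of the isozymes within each library do not depend on the scaling, and they show how cells under stress divided expression within a pair. The LYS20 to LYS21 ratio, per coding length, was 2.00 ± 0.020 in S121A and 1.91 ± 0.087 in WT in NaCl, against 1.05 ± 0.032 in S121A and 1.00 ± 0.011 in WT without stress (SD, n = 3). The change over both genotypes was 0.93 on the log2 scale (exact two-sided permutation within genotypes, p = 0.005, the smallest that 400 arrangements can give, and 0.00857 after Benjamini-Hochberg adjustment over 12 tests). Under heat the LYS20 to LYS21 change was -0.17 (p = 0.005, adjusted 0.00857, exact permutation). The genes are alike enough that 37.8% of the 50-base windows of LYS20 occur unchanged in LYS21, so reads there cannot be assigned by sequence and the ratio is uncertain. The ASN2 to ASN1 ratio was 3.28 ± 0.067 in S121A and 3.01 ± 0.33 in WT in NaCl, against 1.55 ± 0.049 in S121A and 1.60 ± 0.062 in WT without stress, a log2 change of 0.99 (p = 0.005, adjusted 0.00857, exact permutation). Only 2.04% of ASN2 windows occur in ASN1. Under heat the ASN2 to ASN1 ratio was 1.44 ± 0.13 in S121A and 0.8996 ± 0.077 in WT, a log2 change from no stress of -0.10 in S121A and -0.83 in WT. Over both genotypes this heat change was -0.47 (p = 0.015, adjusted 0.0225, exact permutation). The ARO4 to ARO3 ratio under heat was 2.01 ± 0.26 in S121A and 1.53 ± 0.13 in WT, against 2.64 ± 0.18 in S121A and 2.66 ± 0.056 in WT without stress (log2 change -0.60, p = 0.005, adjusted 0.00857, exact permutation). In NaCl its change of -0.06 did not pass (p = 0.445, exact permutation). The SER3 to SER33 ratio under heat was 6.77 ± 0.83 in S121A and 4.87 ± 0.22 in WT, against 3.10 ± 0.10 in S121A and 2.57 ± 0.025 in WT without stress, a log2 change of 1.02 (p = 0.005, adjusted 0.00857, exact permutation). In NaCl the SER3 to SER33 change was 0.20 (p = 0.005, adjusted 0.00857, exact permutation). SER3 counts are uncertain because of the overlap with SRG1, and so is this ratio.

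Between genotypes the SER3 to SER33 ratio was higher in S121A by 0.47 under heat, 0.46 in NaCl and 0.27 without stress on the log2 scale, 0.40 over the 3 conditions (exact two-sided permutation within conditions, p = 0.00025, the smallest that 8000 arrangements can give, adjusted 0.003). The uncertainty of SER3 counts from the SRG1 overlap applies to this difference too. The S121A minus WT difference of the ASN2 to ASN1 ratio was 0.68 under heat, 0.13 in NaCl and -0.05 without stress, and 0.25 over the 3 conditions (p = 0.0225, adjusted 0.03, exact permutation). The ARO4 to ARO3 ratio (p = 0.199) and the LYS20 to LYS21 ratio (p = 0.047, adjusted 0.0564) did not pass the same exact permutation test after adjustment.

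**Figure D3:**
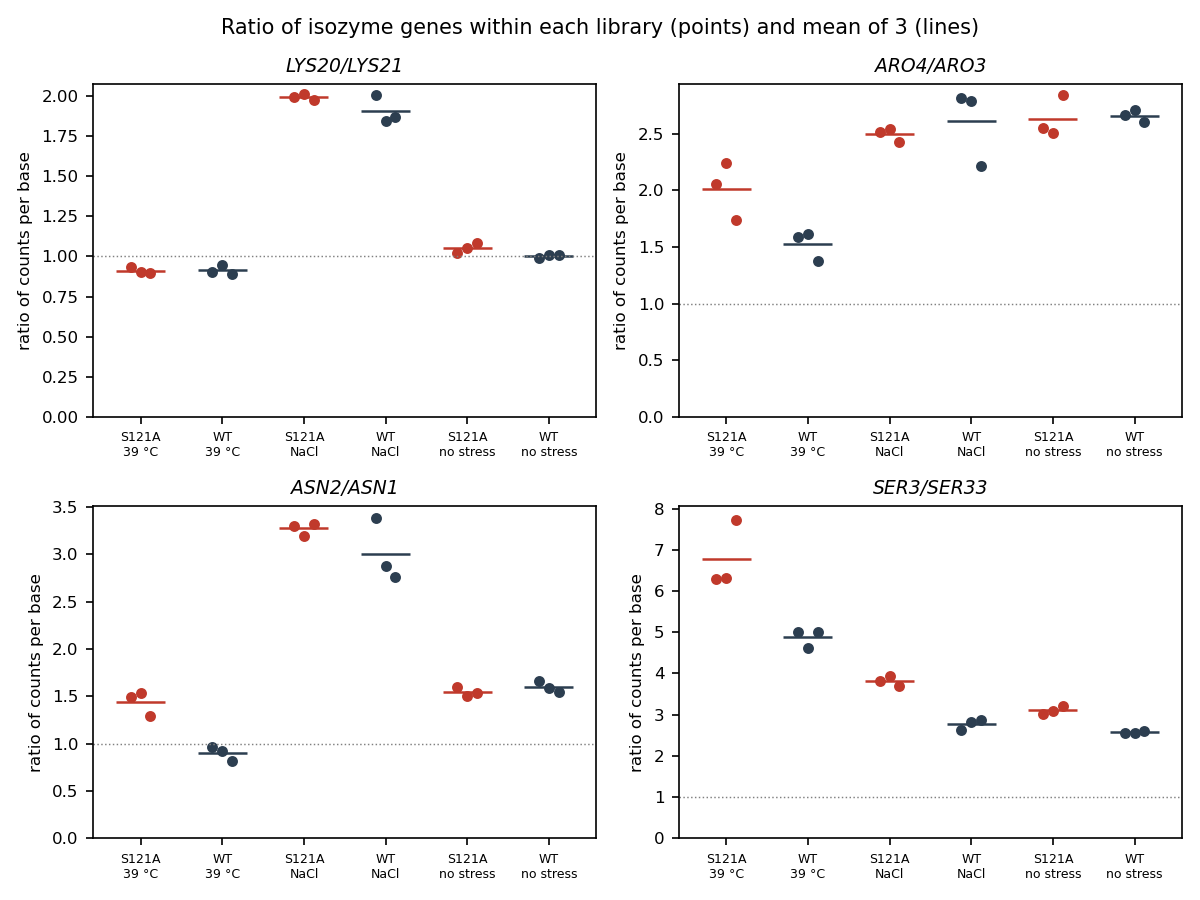
Ratio of counts per base between isozyme genes (vertical axes, from 0) in each library (points) with the mean of 3 (lines), S121A in red and WT in dark grey, under heat (39 °C), in NaCl and without stress. LYS20/LYS21 and ASN2/ASN1 are highest in NaCl, SER3/SER33 is highest under heat, and heated WT is the lowest group for ASN2/ASN1 at 0.8996 and for ARO4/ARO3 at 1.53.

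S121A and WT cells differed in these genes in a way that depended on the condition. Without stress 12 of 39 were lower in S121A (14.1% of all genes) and 4 higher (9.05%). With library totals alone, for which no share of all genes was computed, 4 were lower and 9 higher. With TMM the median log2 difference was -0.16, beside -0.02 for all genes. In NaCl 8 were higher (14.6% of all genes) and 5 lower (9.19%), with a median of -0.01, and without replicate 1 of WT under NaCl 9 were higher and 1 lower. Under heat 16 were higher (19.5% of all genes), which is 41% of the 39, and 0 were lower by edgeR (14.2% of all genes), with a median of 0.16. At an unadjusted p under 0.05 edgeR gave 1 lower, DESeq2 gave 17 higher and 0 lower, and with library totals alone 15 were higher and 2 lower. They included ARG1, CPA1, HIS1, LYS20, LYS21, LYS4, LYS12, LYS9, LYS1, ARO4, ARO2, ASN2, GDH1, PRO1 and SER3. 7 genes were higher in S121A under both stresses (9.91% of all genes), namely LYS20, LYS21, LYS4, LYS12, LYS9, ARO2 and PRO1, and LYS9 alone was higher in all 3 conditions. PRO1 under heat was the only difference between the genotypes of at least 2-fold.

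**Figure D4:**
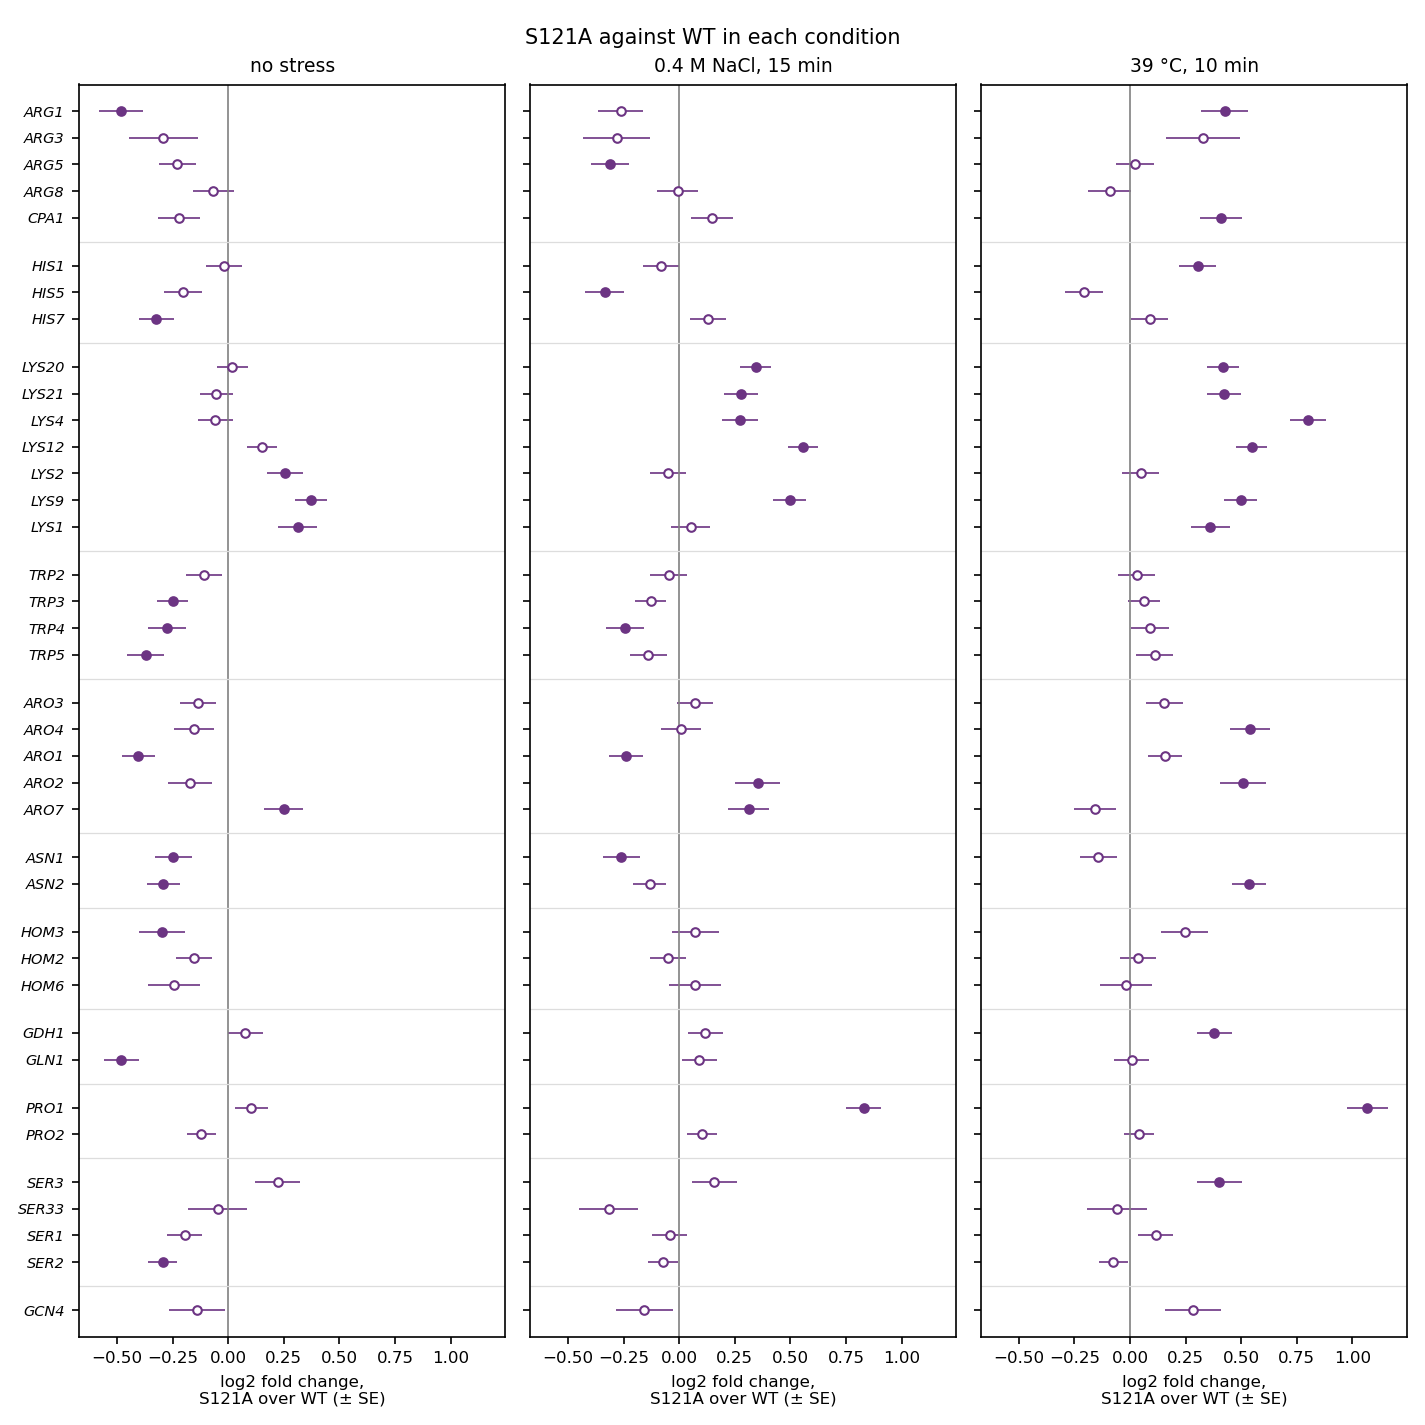
Log2 fold change of S121A over WT for 38 of the 39 genes (rows) without stress, in NaCl and under heat, with bars of ± 1 SE and filled symbols where the adjusted p was under 0.05. Filled symbols lie mostly left of 0 without stress and all right of 0 under heat, where PRO1 is farthest at 1.07. With library totals alone, for which no share of all genes was computed, 2 genes were lower under heat and 9 higher without stress.

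The response to heat differed between genotypes for 20 of the 39 genes: it was less negative or more positive in S121A for 19 (15.5% of all genes), which is 48.7% of the 39, and more negative for ARO7 (7.08% of all genes). The median response difference of the 39 was 0.32, beside 0.05 for all genes. In NaCl the response was less negative or more positive in S121A for 6 (6.82% of all genes), namely HIS7, LYS20, LYS12, ARO2, GLN1 and PRO1, and more negative for 0 by edgeR (1.53% of all genes), with a median of 0.16 beside 0.04. At an unadjusted p under 0.05 edgeR gave 2 more negative, and DESeq2 gave 0 after adjustment. With library totals alone the counts were 11 and 2 for heat and 3 and 2 for NaCl, with no share of all genes computed. These differences share the unstressed libraries with the S121A differences above.

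Leaving out libraries singly ended 8 of 16 S121A calls without stress, 9 of 13 in NaCl and 1 of 16 under heat. Library totals alone ended 8 of the 16 calls without stress, HIS7, TRP3, TRP4, ASN1, ASN2, HOM3 and SER2 among them (adjusted p of 0.0808 to 0.426). 5 of the 16 (ARG1, LYS9, TRP5, ARO1 and GLN1) held in every alternative. Of the calls without stress, ARO7, ASN1 and HOM3 did not pass whichever of the 6 unstressed libraries was left out (adjusted p of 0.0532 to 0.159). LYS2 did not pass without replicates 1 or 2 of S121A (0.0953 and 0.092) or of WT (0.0804 and 0.134). TRP4 did not pass without S121A replicates 2 (0.109) or 3 (0.0761) or WT replicates 1 (0.12) or 2 (0.0604). TRP3 did not pass without S121A replicates 2 (0.0753) or 3 (0.0564) or WT replicate 1 (0.0746), LYS1 without S121A replicate 3 (0.0503) or WT replicate 3 (0.0691), and ASN2 without S121A replicate 2 (0.0539). In NaCl 4 of 13 S121A calls held in every alternative, namely LYS20, LYS12, LYS9 and PRO1. ARG5 (0.0759) and HIS5 (0.0508) did not pass without replicate 1 of WT under NaCl. TRP4 did not pass without 4 of 6 libraries (0.0837 to 0.198) or with the compared libraries alone (0.0642), and ARO1 did not pass without 4 of 6 (0.0531 to 0.0958). The others lost in NaCl were LYS21 without 1 of 6 (0.0506), LYS4 without 2 of 6 (0.0544 to 0.0772), ARO2 without 2 of 6 (0.0519 to 0.0680), ARO7 without 2 of 6 (0.0592 to 0.0795) and ASN1 without 4 of 6 (0.0671 to 0.109). ASN1 in NaCl did not pass with the compared libraries alone either (0.0545), nor ARO7 with library totals alone (0.0666). Under heat 15 of 16 S121A calls held.

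Of the response differences, 11 of 20 held in every alternative for heat and 2 of 6 (GLN1 and PRO1) for NaCl. Those lost to single libraries were TRP3 without 7 of 12 (0.0606 to 0.0881), TRP4 without 8 of 12 (0.0552 to 0.101), ARO7 without 8 of 12 (0.0564 to 0.102) and SER1 without 10 of 12 (0.0583 to 0.104) for heat, and LYS20 without 10 of 12 (0.0580 to 0.115) and ARO2 without 7 of 12 (0.0523 to 0.0749) for NaCl. Library totals alone ended 8 of the 20 for heat, namely HIS7 (0.29), LYS20 (0.0951), LYS12 (0.128), TRP3 (0.347), TRP4 (0.355), HOM3 (0.133), GLN1 (0.0613) and SER1 (0.571). For NaCl it ended 3 of 6, namely HIS7 (0.181), LYS20 (0.21) and LYS12 (0.0876). Among the stress responses 31 of 36 calls held for S121A under heat, 36 of 37 for WT under heat, 25 of 28 for S121A in NaCl and 29 of 32 for WT in NaCl. Single libraries ended ARG5 without 4 of 6 (0.0742 to 0.0963), HOM3 without 3 of 6 (0.0759 to 0.239), HOM6 without 3 of 6 (0.0527 to 0.213) and SER3 without 4 of 6 (0.0538 to 0.0682) for S121A under heat. In NaCl they ended LYS1 without 5 of 6 (0.0543 to 0.117), ASN2 without 3 of 6 (0.0630 to 0.177) and PRO2 without 4 of 6 (0.0555 to 0.211) for S121A and ARG8 without 3 of 6 (0.0981 to 0.220), TRP3 without 3 of 6 (0.0551 to 0.0969) and TRP5 without 1 of 6 (0.0911) for WT.

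Heat and NaCl, compared within WT, differed for most members. Of the 39 genes 25 were lower under heat than in NaCl (33.2% of all genes) and 5 higher (32.9%), with a median log2 difference of -0.47 beside 0.0035 for all genes. LYS20 had the largest, -2.44, followed by ASN2 at -1.73, ARG1 at -1.69, ARO4 at -1.68 and ARG3 at -1.56. HOM3 (0.62), ARG5 (0.39), SER2 (0.39), GCN4 (0.30) and ARO7 (0.25) were the 5 higher under heat. The GCN4 and ARO7 calls did not hold with library totals alone (adjusted p of 0.806 and 0.978) or without some single libraries (GCN4 without 4 of 6 (0.0557 to 0.274) and ARO7 without 3 of 6 (0.0936 to 0.167)), and the ARG5 and SER2 calls did not hold with library totals alone (0.226 and 0.103). With library totals alone 1 gene was higher.

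A list of 18 other enzymes of the same pathways showed falls and rises. Under heat in WT 14 fell (77.8%, against 39.3% of all genes) and 4 rose (22.2%, against 40.6%). In NaCl in WT 8 fell (44.4%, against 37.2%) and 5 rose (27.8%, against 36.3%), shares near those of all genes. SHM2 and GLY1, for enzymes of glycine synthesis, fell in NaCl, with log2 fold changes of -1.62 and -1.36 in S121A and -2.11 and -2.07 in WT. GDH3, for the glutamate dehydrogenase related to Gdh1, rose under heat by 1.56 in S121A and 1.27 in WT. Of 12 genes that act on GCN4 translation (the Gcn2 kinase and its partners, eIF2 and eIF2B subunits and ASC1), 12 fell under heat in S121A (39.7% of all genes) and 11 in WT (39.3%), and in NaCl 11 fell in S121A (35.3%) and 12 in WT (37.2%). GCD11, for the gamma subunit of eIF2, fell under heat, with log2 fold changes of -2.17 in S121A and -2.44 in WT. Of 16 other regulators, 9 rose (56.2%, against 40.3% of all genes) and 5 fell (31.2%, against 39.7%) under heat in S121A. In WT 7 rose under heat (43.8%, near the 40.6% of all genes) and 4 fell (25%, against 39.3%). BAS1, for an activator of histidine and purine genes, fell under heat, with log2 fold changes of -3.14 in S121A and -4.00 in WT. MBF1, for a coactivator that binds Gcn4, rose by 2.83 in S121A and 2.85 in WT. BAS1 averaged 2.66 ± 0.255 CPM in heated S121A and 1.47 ± 0.459 CPM in heated WT (SD, n = 3). LYS14 was lower in heated S121A (log2 fold change -0.32). Without stress 5 of the 18 enzymes were lower in S121A (27.8%, against 14.1% of all genes). In NaCl 3 were higher (16.7%, near the 14.6% of all genes) and 3 lower (against 9.19%). Under heat 4 were higher (22.2%, near the 19.5% of all genes) and the remaining 14 did not pass.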

How the data were processed

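The authors' deposited table holds raw counts per gene, 1 column for each of the 18 poly(A) libraries, without normalization. Per the submitters' processing notes, the builds were R64 and sacCer3, and the tools include featureCounts (1.4.6-p5), TopHat2 (2.0.1) and DESeq2 (1.10.1). A stranded kit with paired-end reads was used, per the labels' protocols. No source used here says how strand, overlaps and multiply mapped reads were handled. Such choices move reads between similar or overlapping genes.

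Every column matched a sample by its labels. Counts were filtered with filterByExpr (6395 of 6746 features kept, 0.00142% of counts left out), scaled by TMM and fitted with a robust quasi-likelihood model in edgeR 4.0.16 (R 4.3.3), with 1 mean for each of 6 groups. SE and adjusted p come from that model, two-sided, with Benjamini-Hochberg adjustment over all genes tested. A response difference is the S121A response minus the WT response. On counts simulated for S121A against WT without stress, 100 of 100 genes changed 2-fold and 89 of 100 changed 1.5-fold were called. So were 9 unchanged genes. The simulation gave every gene the same spread (dispersion 0.01), left out genes with few counts from those changed, and had no scaling shift. Recovery in the real libraries, where these differ, was not measured. Floors of 3 counts cover counting error only.

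Members were matched to R64 by locus tag, 39 of 39, and levels between genes are per kilobase of coding length. Alternatives were library totals, DESeq2 1.42.0, no filter, the compared libraries alone, a replicate block and leaving out each library. Per-library values are given for GCN4, for the gene with the largest called change of each pathway in each WT stress response, for the 4 largest called S121A differences and response differences, for LYS2 and HIS5, and for isozyme pairs. Values of ARG3 were added after they were seen. The members and lists were chosen with earlier results of these data known. Values of 1 member are not reported here, and the member stays in the counts and medians.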

Additional observations from a re-analysis of the deposited data

Results flagged for a closer look

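The responses of the following genes to stress differed between S121A and WT by the test of the difference itself (edgeR, adjusted p under 0.05), and each value is the S121A response minus the WT response on the log2 scale. In NaCl the differences were 0.73 for PRO1, 0.57 for GLN1, 0.52 for ARO2, 0.45 for HIS7, 0.41 for LYS12 and 0.33 for LYS20. Under heat they were 0.96 for PRO1, 0.91 for ARG1, 0.86 for LYS4, 0.83 for ASN2, 0.69 for ARO4, 0.68 for ARO2, 0.63 for CPA1, 0.56 for ARO1 and 0.54 for HOM3. Smaller heat differences were 0.49 for GLN1, 0.48 for LYS21, 0.48 for TRP5, 0.41 for HIS7, 0.40 for LYS20, 0.39 for LYS12, 0.37 for TRP4, 0.31 for TRP3 and 0.31 for SER1. ARO7 had the 1 negative difference, -0.41. Of all 20 members called for heat 11 held in every alternative, and of the 6 called for NaCl 2 held, PRO1 and GLN1.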

How the results depend on the processing

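Of 3336 values recomputed under alternatives, 3064 were classed as the same. For single genes and ratios that means the same direction and side of the threshold. For counts of members it means a number equal or close to the first, and 40 such counts moved farther. DESeq2 ended 0 of the 234 calls. With library totals alone, S121A against WT without stress gave 9 members higher and 4 lower in place of 4 and 12, and under heat 2 lower in place of 0. The same scaling gave 0 higher under heat in S121A and 0 in WT in place of 3 and 1, and 1 higher for heat against NaCl in place of 5. Response differences became 11 higher and 2 lower for heat and 3 higher and 2 lower for NaCl. It reversed GCN4 without stress to 0.0299, LYS1 in S121A to -0.0771 in NaCl and -0.133 under heat, and ARO7 for heat against NaCl to -0.00421. None of these reversed values passed. In heated S121A it reversed ARG5 to -0.395 (edgeR adjusted p = 4.60e-04) and SER3 to -0.35 (edgeR adjusted p = 0.00759), and both passed as falls. The shift of the median of all genes between scalings is given with the library depths, and the cause of the reversals was not tested. No share of all genes was computed with library totals, so these counts are not set against all genes. With only the libraries compared, members higher without stress were 7, members lower in NaCl 3, members higher for heat against NaCl 3, and members more negative in the NaCl response difference 1. Leaving out single libraries gave 2 members higher in each case and 7 to 10 lower in S121A without stress, 5 to 9 higher and 1 to 7 lower in NaCl, and 0 to 1 lower under heat. It gave 1 to 3 higher for S121A under heat, 3 to 6 higher for heat against NaCl, 0 to 1 lower for the heat response difference, and -0.086 to 0.000315 for the ARO4 to ARO3 ratio in NaCl. Replicate numbers did not pair the samples in all groups (19 of 45 same-numbered pairs correlated above 0.1, from -0.572 to 0.621). Between S121A and WT under NaCl same-numbered pairs correlated at 0.431, 0.206 and 0.396, and differently numbered ones from -0.429 to 0.317. The tests between genotypes did not use such pairing. The replicate block ended only the SER1 heat response difference (edgeR adjusted p = 0.0546) and added calls for 4 values. With 3 libraries a group, smaller differences than those called here may be missed.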

Other observations

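Medians are given here, with no test, for members with and without TGACTC in the window that starts 250 bases before the coding model. With 500 bases before the model 27 of the 39 hold it, so some members counted as without it hold it farther upstream. Under heat the median log2 fold change was -0.79 in S121A and -0.85 in WT for the 19 with the motif, and -1.001 in S121A and -1.33 in WT for the 20 without it. S121A over WT under heat had a median of 0.05 with 4 of 19 called higher for genes with the motif, a share near the 19.5% of all genes, and of 0.39 with 12 of 20 called higher for genes without it. Without stress 7 of 19 were lower in S121A with the motif and 5 of 20 without it, against 14.1% of all genes, and with library totals alone 4 of the 39 members were lower in place of 12.

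HIS3, a histidine gene that is also named as a plasmid marker, was left out of the 39. It was at 666, 626 and 793 CPM in S121A and 966, 814 and 841 CPM in WT under heat, and at 558, 487 and 573 CPM in S121A and 1118, 1024 and 1055 CPM in WT without stress. HIS4, another gene named as a marker, had medians of 361, 376 and 375 CPM over the 6 libraries of replicate numbers 1, 2 and 3.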
